A study of Mus musculus with 25 samples.

Results

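The genes examined were 9 markers of retinal bipolar cells, chosen by their symbols and listed in all 5 deposited expression tables, out of 18440 genes that the tables share. They were Grm6, Nyx, Trpm1, Gng13, Pcp2, Prkca, Cabp5, Vsx1 and Isl1. The values were FPKM, fragments scaled to transcript length and to the mapped fragments of the library, from bulk RNA sequencing of whole mouse retina. All 9 reached at least 1 FPKM in each of the 25 libraries and all 9 passed the filter on low values.

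The retinas came from wild-type C57BL/6J mice injected into the vitreous of both eyes at postnatal day 30. Tunicamycin, a blocker of N-glycosylation that stresses the endoplasmic reticulum (ER), was the positive control, and its group had 5 libraries. Ceapin-A7, an inhibitor of the ER stress sensor ATF6, had 5 libraries, and vehicle set 2, which shared its gene list with tunicamycin and Ceapin-A7, had 5. AA147, an activator of ATF6, had 5 libraries, and vehicle set 1, which shared its gene list with AA147, had 5. The dose of every compound was 10 µM in 1 µL of saline with 0.05 to 0.1% dimethyl sulfoxide. Both vehicle sets are labelled PBS, whereas the protocol names the same saline mixture without compound. The compound columns carry a time of 24 h and the vehicle columns carry none, so a difference in collection time cannot be told apart from a compound's effect. The labels do not say that libraries came from separate animals, so the p-values measure only how libraries scatter. That scatter may be technical in whole or in part. The Y-linked gene Ddx3y was under 1 FPKM in 2 of 5 Ceapin-A7, 2 of 5 AA147 and 4 of 5 vehicle set 2 libraries. It was under 1 FPKM in 0 of 5 tunicamycin and 0 of 5 vehicle set 1 libraries. Each of the 3 mixed groups thus held more than 1 animal, and how many is not given.

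Bipolar cells carry signals from photoreceptors to the inner retina. In ON bipolar cells, glutamate from photoreceptors in the dark acts on the receptor mGluR6, which through the G protein Go keeps the cation channel TRPM1 closed, and light lets the channel open. Rod bipolar cells are ON cells, and cone bipolar cells come in ON and OFF types. Loss of mGluR6, nyctalopin or TRPM1 is a known cause of congenital stationary night blindness, in which signals do not pass from rods to ON bipolar cells.

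In the files the gene IDs were 108072 for Grm6, 236690 for Nyx, 17364 for Trpm1, 64337 for Gng13, 18545 for Pcp2, 18750 for Prkca, 29865 for Cabp5, 114889 for Vsx1 and 16392 for Isl1. RefSeq places Nyx on chromosome X, Trpm1 and Cabp5 on chromosome 7, Grm6 and Prkca on 11, Pcp2 on 8, Isl1 on 13, Gng13 on 17 and Vsx1 on 2, in mouse build GRCm38.p6. The deposited values were made on GRCm39, so these positions serve only to locate the promoters. Promoter windows were found for 9 of 9 members, 14 windows in all.

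Shown here are the 250 bases before the start of the members on which the results turn. They are Nyx, which passed the test under tunicamycin, Gng13 and Pcp2, which differed between tunicamycin and Ceapin-A7, and Trpm1, whose library-to-library pattern stood apart. The Nyx window is chrX:13460840-13461089 on the plus strand, Gng13 is chr17:25716922-25717171 on the plus strand and Pcp2 is chr8:3625548-3625797 on the minus strand. Trpm1 has starts 31624 bases apart, with windows chr7:64153585-64153834 and chr7:64185209-64185458 on the plus strand. Each is written 5′ to 3′ on the gene's strand, from RefSeq, and capitals mark matches to the motifs searched.
Nyx: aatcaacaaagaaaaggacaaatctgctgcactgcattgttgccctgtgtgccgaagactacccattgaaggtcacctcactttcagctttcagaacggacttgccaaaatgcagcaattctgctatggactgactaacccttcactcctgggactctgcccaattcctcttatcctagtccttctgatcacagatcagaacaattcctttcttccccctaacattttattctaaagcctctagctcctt
Gng13, upstream start: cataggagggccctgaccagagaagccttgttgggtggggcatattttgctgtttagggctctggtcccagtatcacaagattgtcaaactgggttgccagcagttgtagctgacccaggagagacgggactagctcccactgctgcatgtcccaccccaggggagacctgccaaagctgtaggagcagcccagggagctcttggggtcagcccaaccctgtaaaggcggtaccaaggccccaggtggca
Pcp2, upstream start: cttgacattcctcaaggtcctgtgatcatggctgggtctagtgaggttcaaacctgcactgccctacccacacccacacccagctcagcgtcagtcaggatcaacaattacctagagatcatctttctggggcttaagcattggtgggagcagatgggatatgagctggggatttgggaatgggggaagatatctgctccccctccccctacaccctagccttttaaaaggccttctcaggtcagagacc
Trpm1, upstream start: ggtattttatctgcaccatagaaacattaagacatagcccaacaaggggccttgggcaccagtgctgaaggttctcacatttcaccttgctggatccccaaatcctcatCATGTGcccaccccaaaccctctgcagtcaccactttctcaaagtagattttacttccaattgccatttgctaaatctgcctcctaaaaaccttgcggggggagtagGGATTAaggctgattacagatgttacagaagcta
Trpm1, downstream start: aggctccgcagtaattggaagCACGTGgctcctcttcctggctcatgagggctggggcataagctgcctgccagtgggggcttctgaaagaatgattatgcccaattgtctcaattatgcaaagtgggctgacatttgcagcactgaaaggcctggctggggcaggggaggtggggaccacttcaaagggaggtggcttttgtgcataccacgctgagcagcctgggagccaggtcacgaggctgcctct

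The motifs were searched on both strands. TAATCC, the core bound by CRX and OTX factors of photoreceptors and bipolar cells, was in 6.25% of all 32851 promoter windows and in windows of 3 members, Cabp5, Isl1 and Trpm1. The upstream Trpm1 window held it as GGATTA. The core of the M-box bound by the pigment cell factor MITF, CATGTG, was in 12.3% of all windows and in windows of 2 members, the upstream one of Trpm1 and 1 further window of Pcp2. CACGTG, an E-box that MITF can also bind, was in 6.02% of all windows and in 1 member, in the downstream window of Trpm1. TAATTA, a homeodomain site, was in 4.84% of windows and, among members, in 1 further Pcp2 window. The ER stress element, the site through which ATF6 acts on chaperone genes, was in 0.113% of windows and in 0 of the 14 member windows. The Nyx, Gng13 and Pcp2 windows printed above held none of these 5 motifs in the bases shown.

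The 9 members spanned a wide range of levels. FPKM is scaled per length, so levels can be set side by side between genes. In vehicle set 2, Gng13 was highest at 306 ± 38.8 FPKM (SD, n = 5), above 98.7% of tested genes, and Nyx lowest at 8.23 ± 0.48 FPKM, above 36.9%. Between them stood Pcp2, Trpm1, Cabp5, Prkca, Grm6, Isl1 and Vsx1, in that order. The library ranges of Gng13 and Pcp2 overlapped there, as did those of Cabp5 with Prkca and of Prkca with Grm6, so neighbours in those pairs did not separate. In vehicle set 1, Pcp2 stood above Gng13 with no overlap, at 360 ± 32.9 and 254 ± 23.7 FPKM, and Grm6 moved up beside Cabp5 and Trpm1, whose ranges overlapped. Isl1, Vsx1 and Nyx were the lowest 3 in every group.

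**Figure D1:**
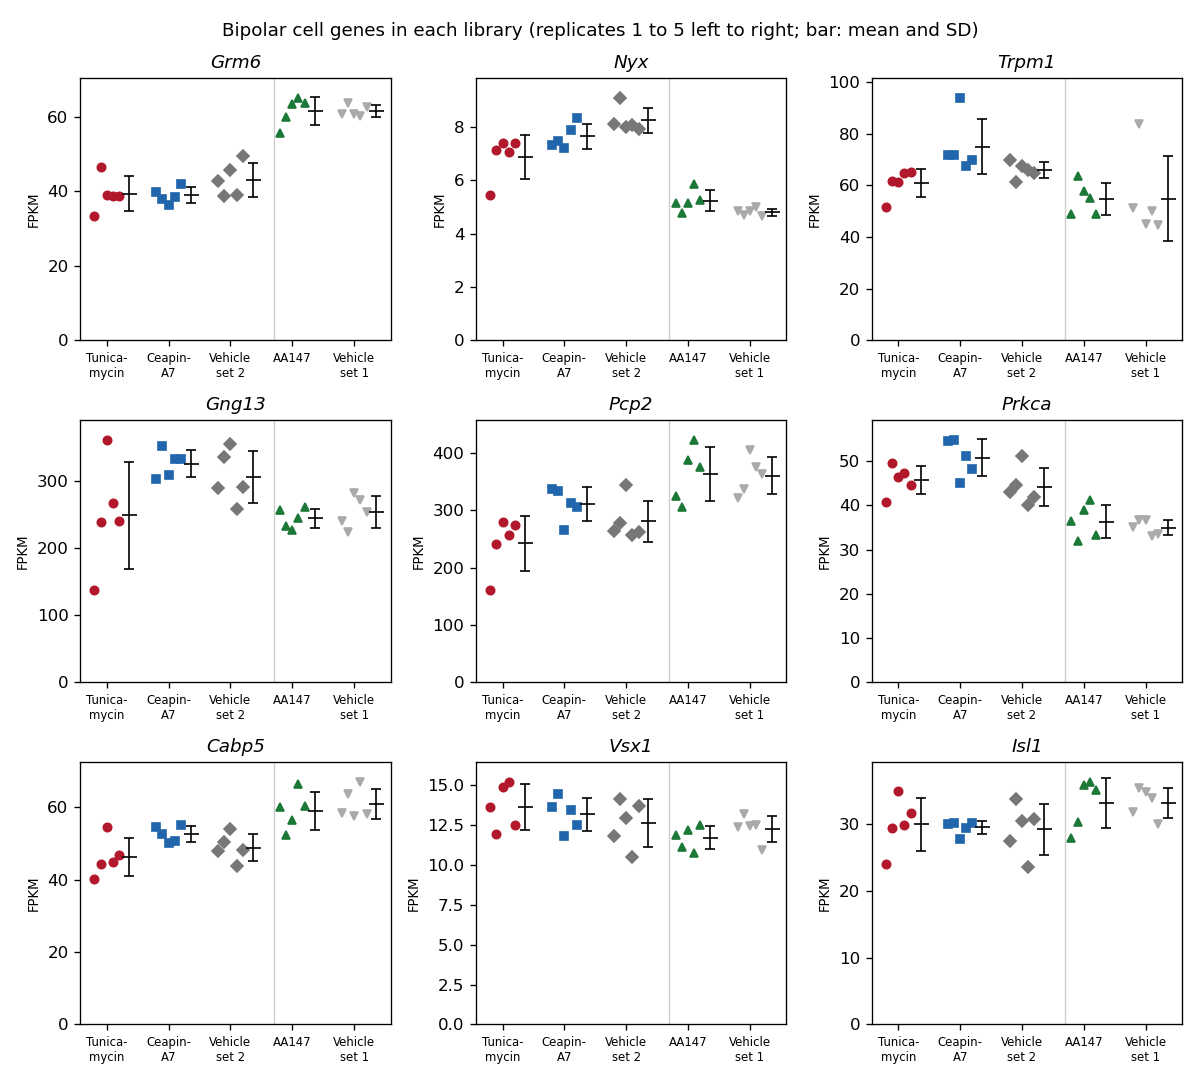
FPKM of the 9 members (vertical axis, from 0) in each of 5 libraries per group, with the mean and SD of each group beside its points; the vertical line separates the groups by gene list. Nyx in tunicamycin libraries, at 5.44 to 7.39 FPKM, lies below vehicle set 2, at 7.91 to 9.08, and Grm6 and Nyx differ more between the vehicle sets than under any compound.

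Tunicamycin was compared with vehicle set 2 to see whether ER stress moved the bipolar genes. Of the 9 members, 1 passed the test, Nyx, and it was lower; 8 did not pass. Among all 13117 genes tested, 8.7% were called, 2.81% lower and 5.89% higher. The median change of the members was -0.11 on the log2(FPKM + 1) scale, against 0.013 over all tested genes. Without tunicamycin library 1 that median was -0.056, with changes of -0.16 for Gng13 and -0.089 for Pcp2. The same model called 12 of 12 ATF6 target genes higher, with a median change of 1.56. A call here means a Benjamini-Hochberg adjusted p from limma under 0.05, two-sided, over all tested genes. The number of called genes depended on single libraries, with 607 called without tunicamycin library 1 and 1983 without library 3, against 1141 with both. Because the tissue is bulk retina, fewer bipolar cells and less RNA per bipolar cell cannot be told apart.

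Nyx encodes nyctalopin, a leucine-rich repeat protein needed to hold TRPM1 at the dendritic tips of ON bipolar cells. Tunicamycin libraries 1 to 5 had 5.44, 7.12, 7.39, 7.05 and 7.37 FPKM of Nyx, against 8.11, 9.08, 8.0, 8.07 and 7.91 FPKM in vehicle set 2. The groups did not overlap, and library 1 was the lowest of the tunicamycin libraries. The log2 change was -0.24 ± 0.06 (SE), with a limma adjusted p of 0.0185 and a 95% interval of -0.36 to -0.11. Among all tested genes, 4.05% did not overlap between these groups, 1.24% with tunicamycin lower. Without tunicamycin library 1 the change was -0.16 and the adjusted p 0.0524. With the spread estimated from the compared groups alone the adjusted p was 0.202. The Y-linked gene Ddx3y was under 1 FPKM in 0 of 5 tunicamycin libraries and in 4 of 5 vehicle set 2 libraries, and with its level as a covariate the change of Nyx was -0.15 and the adjusted p 0.237.

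Grm6, which encodes mGluR6, had 33.44, 46.60, 39.06, 38.74 and 38.85 FPKM in tunicamycin libraries, against 42.65, 38.63, 45.69, 39.04 and 49.46 FPKM in vehicle set 2. The ranges overlapped, and the log2 change was -0.13 ± 0.07 (SE, limma adjusted p = 0.253). Trpm1, the channel that the pathway controls, had 51.58, 61.64, 61.28, 64.98 and 65.25 FPKM in tunicamycin libraries, against 69.72, 61.32, 67.62, 65.79 and 64.80 FPKM in vehicle set 2. Library 1 was again lowest and the other 4 lay within or just below the vehicle range, for a change of -0.11 ± 0.12 (adjusted p = 0.614). Gng13, a gamma subunit of the G protein Go in ON bipolar cells, had 137.97, 239.02, 361.13, 266.90 and 240.46 FPKM in tunicamycin libraries, against 289.24, 336.15, 354.59, 258.84 and 290.52 FPKM in vehicle set 2. Its spread under tunicamycin was wide, with library 1 the lowest and library 3 the highest of both groups, and its change of -0.35 ± 0.15 did not pass (adjusted p = 0.143). Without library 3 the change was -0.50 and passed (adjusted p = 0.0118).

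Pcp2, a regulator that binds the alpha subunit of Go and is abundant in rod bipolar cells, had 160.94, 241.41, 279.46, 256.16 and 274.90 FPKM in tunicamycin libraries, against 263.09, 278.33, 343.45, 257.63 and 262.27 FPKM in vehicle set 2. Its log2 change of -0.23 ± 0.12 (SE) did not pass (limma adjusted p = 0.248). Prkca, the protein kinase C alpha used to mark rod bipolar cells, had 40.85, 49.51, 46.52, 47.26 and 44.59 FPKM in tunicamycin libraries, against 43.13, 44.69, 51.19, 40.04 and 41.82 FPKM in vehicle set 2, a change of 0.05 ± 0.07 (adjusted p = 0.699). For both genes the groups overlapped. Cabp5, a calcium-binding protein of rod bipolar cells and some cone bipolar types, ranged over 40.28 to 54.51 FPKM in tunicamycin libraries and 43.72 to 54.05 FPKM in vehicle set 2, a change of -0.08 ± 0.07 (adjusted p = 0.497).

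The transcription factors among the members had no change past the threshold. Vsx1, a homeodomain factor of cone bipolar cells, had 13.67, 11.96, 14.89, 15.22 and 12.51 FPKM in tunicamycin libraries, against 11.79, 14.17, 12.97, 10.51 and 13.71 FPKM in vehicle set 2. Isl1, a LIM homeodomain factor of ON bipolar cells that ganglion cells and cholinergic amacrine cells also use, had 24.11, 29.46, 35.04, 29.86 and 31.77 FPKM in tunicamycin libraries, against 27.49, 33.79, 30.49, 23.69 and 30.85 FPKM in vehicle set 2. The log2 changes were 0.11 ± 0.07 for Vsx1 (SE, limma adjusted p = 0.397) and 0.04 ± 0.09 for Isl1 (adjusted p = 0.843). The intervals of 95% ran from -0.047 to 0.26 for Vsx1 and from -0.15 to 0.22 for Isl1.

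Tunicamycin library 1 carried much of this pattern. It was the lowest of the 5 tunicamycin libraries for 8 of the 9 members, all but Vsx1, and the median of its members relative to the vehicle set 2 mean was -0.35 on the log2 scale. The medians of the other 4 tunicamycin libraries lay between -0.12 and 0.078, and those of the vehicle set 2 libraries between -0.13 and 0.089. Low libraries occurred in other groups too. Ceapin-A7 library 3 was the lowest of its group for 7 of the 9 members and vehicle set 2 library 4 for 6. Tunicamycin library 1 also had the highest level of Hspa5, the main ER chaperone, at 1513 FPKM. The other tunicamycin libraries had 229 to 581 FPKM and vehicle set 2 had 106 to 162 FPKM. Its summed FPKM of 21 lens genes was the highest of all libraries, at 5.1% of all FPKM. The part of the lens genes in the library 1 values was not tested beyond rescaling without them, under which Nyx stayed called with a change of -0.25 (limma adjusted p = 0.0164).

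**Figure D2:**
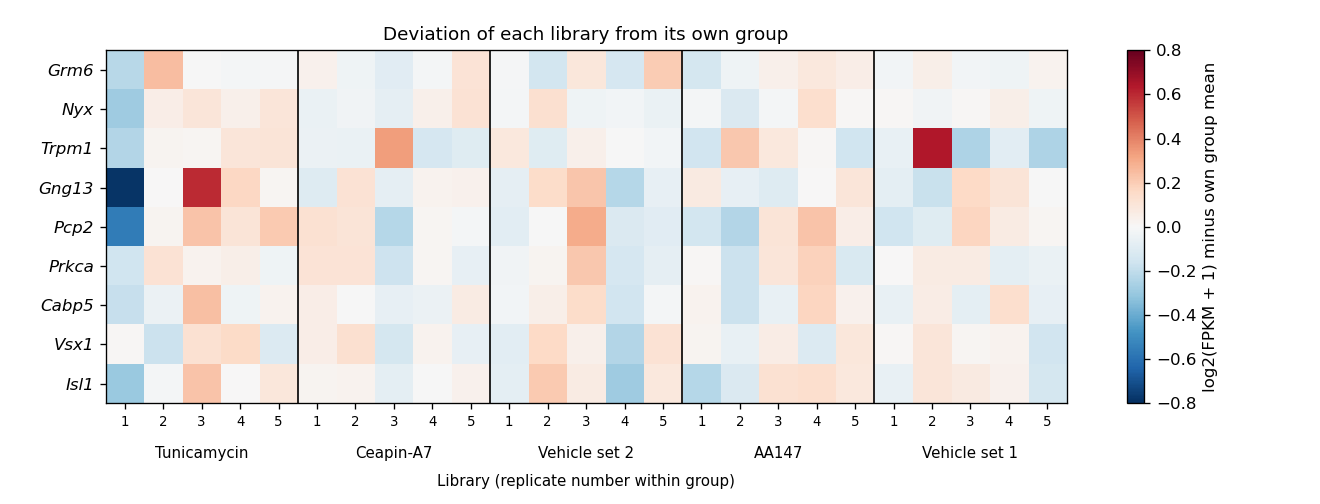
Deviation of each library from the mean of its own group (colour, log2(FPKM + 1)) for the 9 members in rows and the 25 libraries in columns. Tunicamycin library 1 is low for 8 of 9 members, and the high Trpm1 values of Ceapin-A7 library 3 and vehicle set 1 library 2 are not shared by the other members.

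Ceapin-A7, described as an ATF6 inhibitor, was compared with vehicle set 2 for the same genes. None of the 9 members passed (0 of 9), and limma called 0% of all tested genes, with 1615 genes at an unadjusted p under 0.05. The median member change was 0.097, against -0.00035 over all genes. Of the 12 ATF6 target genes 0 passed and 12 were negative, with a median of -0.075, while 50.2% of all genes were negative. The sums of these 12 genes were 792 and 880 FPKM in vehicle set 2 libraries 4 and 5. Libraries 1 to 3 of that set had 719.9 to 731.5 FPKM, and Ceapin-A7 libraries 701 to 785 FPKM. Prkca had the largest change among members. It had 54.60, 54.81, 45.08, 51.12 and 48.23 FPKM in Ceapin-A7 libraries, against 43.13, 44.69, 51.19, 40.04 and 41.82 FPKM in vehicle set 2, a log2 change of 0.20 ± 0.07 (SE, limma adjusted p = 0.316). The ranges overlapped only through vehicle set 2 library 3, which lay above Ceapin-A7 libraries 3, 4 and 5.

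Grm6 had 39.85, 37.94, 36.41, 38.48 and 42.06 FPKM in Ceapin-A7 libraries, against 42.65, 38.63, 45.69, 39.04 and 49.46 FPKM in vehicle set 2, a log2 change of -0.14 ± 0.07 (SE, limma adjusted p = 0.416). Nyx had 7.31, 7.45, 7.20, 7.89 and 8.33 FPKM in Ceapin-A7 libraries, against 8.11, 9.08, 8.0, 8.07 and 7.91 FPKM in vehicle set 2, a change of -0.097 ± 0.06 (adjusted p = 0.523). Ceapin-A7 libraries were mostly lower for both genes, but the groups overlapped. The remaining 6 members, Trpm1, Gng13, Pcp2, Cabp5, Vsx1 and Isl1, had changes of 0.02 to 0.18, and each of their 95% intervals included 0.

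AA147, described as an ATF6 activator, was compared with vehicle set 1. None of the 9 members passed (0 of 9), and limma called 0% of all tested genes, with 246 at an unadjusted p under 0.05. Of the 12 ATF6 target genes 0 passed, 3 were positive and 9 negative, and the median was -0.082. Member changes ran from -0.063 for Vsx1 to 0.10 for Nyx, with a median of -0.0042 against 0.0092 over all genes. The 95% intervals of all 9 lay between -0.36 and 0.29 on the log2 scale, so a larger change in either direction lay outside the interval of every member. Nyx had 5.16, 4.75, 5.14, 5.84 and 5.25 FPKM in AA147 libraries, against 4.84, 4.69, 4.84, 4.98 and 4.66 FPKM in vehicle set 1. AA147 libraries were mostly higher for Nyx, and the ranges overlapped (change 0.10 ± 0.06 SE, limma adjusted p = 1.00).

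The other genes of the ON pathway overlapped between AA147 and vehicle set 1 libraries. Grm6 had 55.55, 59.80, 63.27, 65.06 and 63.72 FPKM in AA147 libraries, against 60.64, 63.76, 60.67, 60.14 and 62.70 FPKM in vehicle set 1. Gng13 had 256.08, 232.90, 227.11, 244.51 and 260.92 FPKM in AA147 libraries, against 240.03, 223.73, 282.69, 271.67 and 253.01 FPKM in vehicle set 1. Neither gene sat higher or lower as a group. Pcp2 averaged 363 ± 47.2 FPKM in AA147 libraries and 360 ± 32.9 FPKM in vehicle set 1 (SD, n = 5 each). Trpm1 averaged 54.8 ± 6.24 FPKM in AA147 libraries and 54.9 ± 16.3 FPKM in vehicle set 1, where library 2 alone was above 51.17 FPKM. Prkca, Cabp5, Vsx1 and Isl1 had changes of -0.063 to 0.049.

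Tunicamycin and Ceapin-A7 were also set against each other, since both share a gene list. Of the 9 members, 6 had negative changes, as did 45.6% of all tested genes. Those called were 2, Gng13 and Pcp2, both lower with tunicamycin. Of all tested genes, 13.3% were called, 4.48% called lower and 8.83% called higher. Gng13 averaged 249 ± 79.7 FPKM in tunicamycin libraries and 326 ± 19.9 FPKM in Ceapin-A7 libraries (SD, n = 5 each), where the values were 302.64, 351.61, 308.74, 332.13 and 332.42 FPKM. Pcp2 averaged 243 ± 48.1 FPKM in tunicamycin libraries and 311 ± 28.9 FPKM in Ceapin-A7 libraries, where the values were 337.26, 333.44, 264.81, 312.89 and 306.34 FPKM. The log2 changes were -0.45 ± 0.15 for Gng13 (SE, limma adjusted p = 0.0482) and -0.38 ± 0.12 for Pcp2 (adjusted p = 0.0412). Both genes overlapped between the groups. Both calls were fragile, since of the 10 fits that leave out 1 library Gng13 stayed called in 1 and Pcp2 in 3. Without tunicamycin library 1 the changes were -0.25 for Gng13 and -0.24 for Pcp2, with adjusted p of 0.149 and 0.146. The number of genes called over the whole table was 923 without that library and 2871 without tunicamycin library 3, against 1746 with both.

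Trpm1 did not pass in that comparison but did not overlap between groups. Tunicamycin libraries had 51.58 to 65.25 FPKM of Trpm1, against 71.94, 71.75, 93.89, 67.60 and 69.65 FPKM in Ceapin-A7 libraries, and 2.74% of all tested genes were non-overlapping and lower in the same way. The log2 change was -0.29 ± 0.12 (SE, limma adjusted p = 0.119). Cabp5 averaged 46.2 ± 5.23 FPKM in tunicamycin libraries and 52.6 ± 2.23 FPKM in Ceapin-A7 libraries, a change of -0.19 ± 0.07 (adjusted p = 0.0679). The other 5 members did not pass either. Nyx was at -0.14 ± 0.06 (adjusted p = 0.130) and Prkca at -0.15 ± 0.07 (adjusted p = 0.168). Grm6, Isl1 and Vsx1 were nearest to 0, at 0.0080, 0.014 and 0.045.

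**Figure D3:**
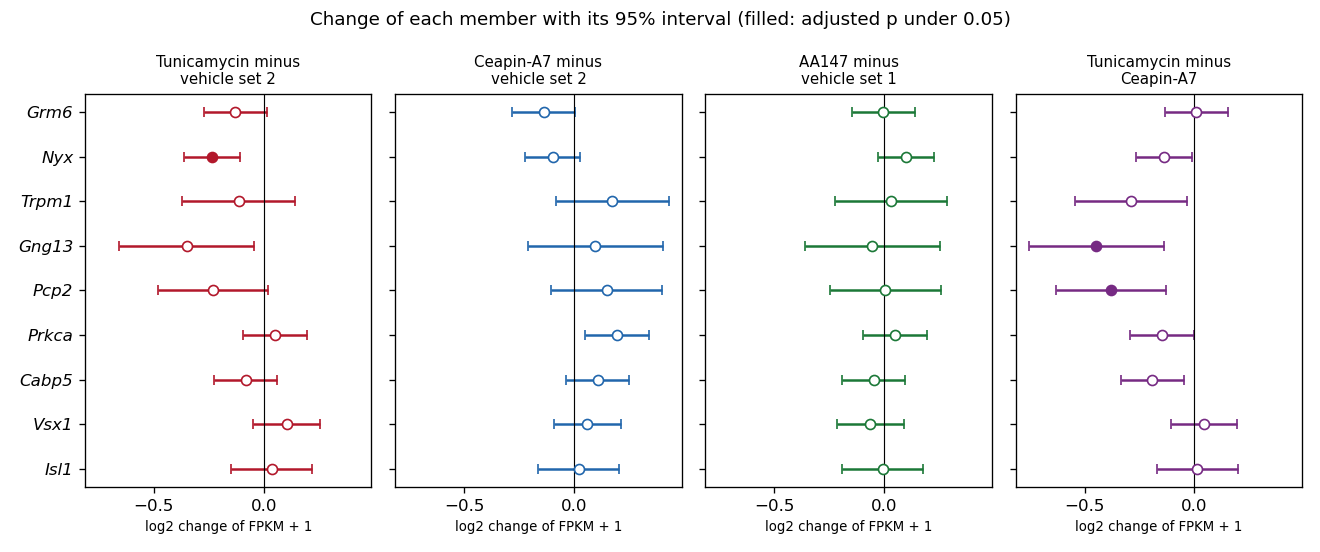
Log2 change of each member (horizontal axis, FPKM + 1) with its 95% interval in 4 comparisons; filled points passed a limma adjusted p of 0.05. Nyx is filled under tunicamycin against vehicle set 2, at -0.24, and Gng13 and Pcp2 under tunicamycin against Ceapin-A7, at -0.45 and -0.38.

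Whether the compounds differed in their effect was tested with each compound relative to its own vehicle set. For the tunicamycin effect minus the AA147 effect, 0 of 9 members passed and limma called 1.04% of all tested genes. Nyx was nearest, at -0.34 ± 0.09 (SE, limma adjusted p = 0.0597), and 3 of 20 fits that leave out 1 library brought it past the threshold. The other 8 ran from -0.30 for Gng13 through Pcp2, Trpm1, Grm6, Cabp5, Prkca and Isl1 to 0.17 for Vsx1, with adjusted p of 0.451 or more. For the AA147 effect minus the Ceapin-A7 effect, 0 of 9 members passed and 0% of all genes were called, with 882 at an unadjusted p under 0.05. The 95% interval of Nyx, at 0.20 ± 0.09 (limma adjusted p = 0.726), lay above 0, and those of the other 8 included 0. Grm6 was at 0.13, and Cabp5, Gng13, Prkca, Trpm1, Pcp2, Vsx1 and Isl1 lay between -0.16 and -0.030.

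The vehicle sets differed from each other for more members than any compound differed from its vehicle. Vehicle set 2 against vehicle set 1 had 5 of 9 members called, against 46.8% of all tested genes, so the members' share was near that of the whole table. These sets come from tables with different gene lists, and nothing in the labels says what else separates them. In their values, Ddx3y was under 1 FPKM in 4 of 5 vehicle set 2 libraries and in 0 of 5 vehicle set 1 libraries. Grm6 averaged 43.1 ± 4.58 FPKM in vehicle set 2 and 61.6 ± 1.56 FPKM in vehicle set 1 (SD, n = 5 each), with no overlap and a log2 change of -0.51 ± 0.07 (SE, limma adjusted p = 1.83e-06). Nyx averaged 8.23 ± 0.48 FPKM in vehicle set 2 and 4.80 ± 0.13 FPKM in vehicle set 1, with no overlap and a change of 0.67 ± 0.06 (adjusted p = 4.57e-09). Thus the receptor gene was lower and the nyctalopin gene higher in the same libraries.

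Prkca averaged 44.2 ± 4.28 FPKM in vehicle set 2 and 35.0 ± 1.65 FPKM in vehicle set 1, a log2 change of 0.32 ± 0.07 (SE, limma adjusted p = 0.000591) with no overlap. Cabp5 averaged 48.8 ± 3.77 FPKM in vehicle set 2 and 61.0 ± 4.13 FPKM in vehicle set 1, a change of -0.32 ± 0.07 (adjusted p = 0.0006) with no overlap. Over all tested genes, 33.4% did not overlap between the sets. Pcp2 was also lower in vehicle set 2, at -0.36 ± 0.12 (adjusted p = 0.0171), with overlapping ranges. Without libraries 4 and 5 of vehicle set 2 the change of Pcp2 was -0.29 and the adjusted p 0.104. The other 4 did not pass. Trpm1 was at 0.30 ± 0.12 (adjusted p = 0.0525), Gng13 at 0.26 ± 0.15 (adjusted p = 0.156) and Isl1 at -0.19 ± 0.09 (adjusted p = 0.0928), and Vsx1 had the smallest difference, 0.03 ± 0.07. Among the compound libraries, Grm6 was 33.44 to 46.60 FPKM with tunicamycin or Ceapin-A7 and 55.55 to 65.06 FPKM with AA147. The other members called between the vehicle sets overlapped there, as with Nyx at 5.44 to 8.33 FPKM with tunicamycin or Ceapin-A7 and 4.75 to 5.84 FPKM with AA147. For Nyx the overlap came only through tunicamycin library 1, at 5.44 FPKM. The other tunicamycin libraries had 7.05 to 7.39 FPKM of Nyx and the Ceapin-A7 libraries 7.20 to 8.33 FPKM. Prkca also overlapped only through tunicamycin library 1, at 40.85 FPKM, against AA147 library 4 at 41.19 FPKM.

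The partner genes of the ON pathway were a list of 8. They code for the Go alpha subunit, its beta subunits, the RGS proteins that switch it off, their anchors GPR179 and R9AP, and LRIT3. Under tunicamycin against vehicle set 2, 0 of the 8 were called, against 8.7% of all tested genes. Their median change was -0.039. Gnb5, the beta subunit that pairs with RGS7 and RGS11, was nearest the threshold, at 257 ± 13.1 FPKM in tunicamycin libraries and 289 ± 17.8 FPKM in vehicle set 2 (log2 change -0.17 ± 0.06 SE, limma adjusted p = 0.0684). Gnb3, the beta subunit of the ON bipolar G protein, averaged 259 ± 63.2 FPKM in tunicamycin libraries and 323 ± 78.9 FPKM in vehicle set 2 (change -0.32 ± 0.16, adjusted p = 0.214). Between the vehicle sets, 7 of the 8 had negative changes, against 45% of all tested genes. Of the 8, 5 were called lower in vehicle set 2 and 0 called higher, and 20.5% of all tested genes were called lower there. Gnb5 averaged 289 ± 17.8 FPKM in vehicle set 2 and 348 ± 30.7 FPKM in vehicle set 1.

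Changes in the other bipolar lists under tunicamycin were mostly negative, and few passed. Over all tested genes, 45.6% were negative. Tunicamycin library 1 had the lowest sum of its group in each list. Its sums were 332 FPKM for transcription factors, 131 FPKM for rod bipolar and 149 FPKM for cone bipolar genes. The other tunicamycin libraries had 371 to 410, 151 to 168 and 191 to 225 FPKM. Of 11 bipolar transcription factors, 11 were negative, 1 of them past the threshold, with a median change of -0.076; over all tested genes, 2.81% were called lower. The called gene was Prdm8, a transcriptional repressor needed for rod bipolar cells to form, at 21.6 ± 1.42 FPKM in tunicamycin libraries and 27.5 ± 3.24 FPKM in vehicle set 2 (log2 change -0.33 ± 0.07 SE, limma adjusted p = 0.00341). Its ranges overlapped, at 20.50 to 24.05 FPKM with tunicamycin and 23.25 to 32.13 FPKM in vehicle set 2. Prdm8 averaged 23.3 ± 1.36 FPKM in Ceapin-A7 libraries and 40.4 ± 0.94 FPKM in vehicle set 1. Between tunicamycin and Ceapin-A7, 0 of the 11 factors were called, against 13.3% of all tested genes. Of 5 further rod bipolar genes, 5 were negative and 0 called, with a median of -0.056. Of 17 further cone bipolar genes, 13 were negative, 3 passed as lower and 0 as higher, with a median of -0.12. These were Cck, a neuropeptide, Cabp2 and Serpini1. Cck was at 14.2 ± 4.49 FPKM in tunicamycin libraries and 20.1 ± 0.77 FPKM in vehicle set 2, without overlap (change -0.55 ± 0.15, limma adjusted p = 0.0227). Cabp2 and Serpini1 were at -0.33 ± 0.10 and -0.32 ± 0.10 (limma adjusted p = 0.0499 each). Tunicamycin library 1 was lowest of its group for Cck, Cabp2 and Serpini1, at 6.57, 4.51 and 15.36 FPKM. The other tunicamycin libraries had 14.62 to 18.26, 6.25 to 8.19 and 22.51 to 28.77 FPKM. Whether these calls hold without library 1 was not examined.

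Genes on the photoreceptor side of the same synapse had 0 of 11 called under tunicamycin, with a median of -0.034. In the Ceapin-A7 and AA147 comparisons 0 genes of any of these 5 lists were called. Markers of other cells are given for tunicamycin against vehicle set 2. There, 45.6% of all tested genes were negative, 2.81% called lower and 5.89% called higher. Tunicamycin library 1 had the lowest sum of its group in the amacrine, Müller glia, ganglion cell, microglia, rod, horizontal cell and cone lists. Of 11 amacrine genes 10 were negative and 1 called, Slc32a1, lower, with a median of -0.18. Of 10 Müller glia genes 9 were negative, of 10 ganglion cell genes 8, of 8 microglia genes 7, of 12 rod genes 8 and of 4 tested horizontal cell genes 3, with 0 called in each and medians of -0.13, -0.099, -0.083, -0.040 and -0.042. Of 8 cone genes 8 were positive and 1 called, Pde6c, higher, with a median of 0.082. For Ceapin-A7 against vehicle set 2, 8 were positive and 0 called, with a median of 0.26. For tunicamycin against Ceapin-A7, 7 of the 8 were negative. In vehicle set 2, the cone sums of libraries 4 and 5 were 906 and 831 FPKM. Its libraries 1 to 3 had 1051 to 1180 FPKM. The part of these vehicle libraries in the cone changes was not tested. Of 9 endothelial genes 7 were negative, with 4 called lower and 2 called higher, and the median was -0.29. Of 10 tested pigment epithelium genes, 9 were negative and 5 called lower under tunicamycin. The list sum was 31.2 to 153 FPKM, against 137 to 305 FPKM in vehicle set 2. Of 21 lens genes 0 were called, with a median change of 1.33 and sums of 80.1 to 21297 FPKM in tunicamycin libraries, against 79.3 to 7808 FPKM in vehicle set 2. Their part in the member changes was not tested further.

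Within groups, most members varied together from library to library. Taken as deviations from group means over the 25 libraries, 31 of 36 pairs of members had a positive Pearson r, with a median of 0.39. The highest was Gng13 with Pcp2, at 0.76. Trpm1 stood apart, with a median r of 0.011 with the other 8, against 0.23 to 0.68 for each of the other members. The genes outside the list most like the mean member profile were the histone gene H2bu2, at r = 0.89, Lrtm1, at 0.88, and Calb1, the calbindin of horizontal cells, at 0.88. Spearman's rho was 0.71, 0.74 and 0.72 for these, and r was 0.78, 0.76 and 0.73 without the 2 libraries farthest from the median, tunicamycin library 1 and vehicle set 2 library 4. These values share libraries and their scaling and describe the libraries only.

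Trpm1 is also made in pigment cells, where it was first found as melastatin. Its highest libraries were Ceapin-A7 library 3 at 93.89 FPKM, against 67.60 to 71.94 FPKM in the other 4, and vehicle set 1 library 2 at 83.63 FPKM, against 44.73 to 51.17 FPKM in the other 4. These libraries also held the most melanin pathway transcripts. The summed FPKM of 6 such genes (Pmel, Tyrp1, Dct, Mlana, Tyr and Slc45a2) was 407 in Ceapin-A7 library 3, against 46.8 to 141 in the others of its group, and 274 in vehicle set 1 library 2, against 6.68 to 76.3. In AA147, library 2 had the highest of both, at 63.56 FPKM of Trpm1 and a sum of 177.

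Over all 25 libraries, as deviations from group means, Trpm1 went with the melanin sum at Pearson r = 0.77 and Spearman's rho = 0.73. Without the 2 libraries farthest out, vehicle set 1 library 2 and AA147 library 2, r was 0.69. The other 8 members had r of -0.28 to -0.035 with the same sum. With the other 6 genes of the pigment epithelium list (Rpe65, Best1, Ttr, Rgr, Lrat and Rdh5), which serve the visual cycle and epithelial transport, Trpm1 had r = -0.057, rho = -0.028 and, without AA147 libraries 1 and 2, r = -0.30. The split of the list in this way was made after the values were seen, and these are 2 of 36 relations computed between members and such sums. How much of the Trpm1 signal came from pigment cells was not tested.

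**Figure D4:**
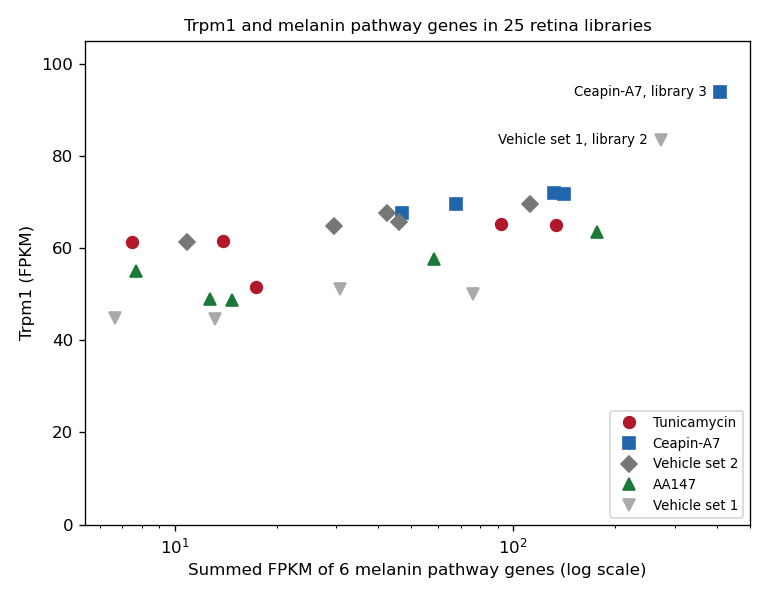
Trpm1 (vertical axis, FPKM) against the summed FPKM of 6 melanin pathway genes (horizontal axis, log scale) in the 25 libraries, by group. Ceapin-A7 library 3, at 93.89 FPKM, and vehicle set 1 library 2, at 83.63 FPKM, are highest on both axes.

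The mean member profile was also set against Hspa5 and the lens sum. With Hspa5 it had Pearson r = -0.76 and Spearman's rho = -0.51, and without tunicamycin libraries 1 and 3, r = -0.40. Among members, Pcp2 had r = -0.82 and rho = -0.80 with Hspa5 and, without those 2 libraries, r = -0.75. Gng13 had r = -0.88 and rho = -0.53 with Hspa5 and, without them, r = -0.43. The r of the other members with Hspa5 ran from -0.75 for Nyx to -0.033 for Trpm1. Pcp2 and Gng13 were picked from the 36 relations computed between members and a list or gene. With the lens sum the member profile had r = -0.51, rho = -0.40 and, without library 3 of tunicamycin and of vehicle set 2, r = -0.36. These describe 25 libraries that share tables and scaling.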

How the data were processed

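Stranded mRNA libraries of retina were sequenced on DNBSEQ, per the labels' protocols. Per the submitters' processing notes, DESeq2 1.4.5, RSEM 1.2.18 and HISAT2 2.0.4 were used, in roles not given there, with build GRCm39. The authors deposited FPKM with 2 decimals in 5 tables of 5 libraries, which list 18676 genes (AA147, vehicle set 1) or 19102 (the others), and 18440 are shared. Columns were matched to samples by name, and 0 were left out. FPKM holds no counts, and the step size of low values put depth at roughly 15.2 to 25.3 M fragments per library (median 23.4 M), lowest in Ceapin-A7 library 3, without recovering whole reads. A 2 kb transcript at 1 FPKM then has about 41 fragments in a library of median depth.

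Values were tested as log2(FPKM + 1), which understates changes of low genes, for 13117 genes, those that reached 1 FPKM in 5 or more of the 25 libraries. One model with 5 groups was fitted with limma 3.58.1 (trend, R 4.3.3), so each SE pools the spread of all groups. All tests were two-sided. Tables and figures were made with matplotlib 3.10.9, pandas 2.3.3 and numpy 2.4.6 in Python 3.11.15. The test was tried on simulated data. Members and lists were chosen with earlier results of these data known, and the naming rule admits all 9 members in every comparison; of other lists, genes past the threshold, and otherwise the 2 of highest level, may be named. Gene positions came from RefSeq tables of GRCm38.p6. Alternatives covered the pseudocount, the filter, scaling, weights, covariates, the groups fitted and each library left out.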

Additional observations from a re-analysis of the deposited data

Results flagged for a closer look

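A library stood apart from the other 4 of its group, by the gap to its nearest neighbour over the whole range, in 5 of 45 combinations of member and group. Chance flags about 1 in 20. Nyx was low in tunicamycin library 1, at 5.44 FPKM against 7.05 to 7.39, and the call for Nyx is lost without it. Nyx was high in vehicle set 2 library 2, at 9.08 FPKM against 7.91 to 8.11. Trpm1 was high in Ceapin-A7 library 3, at 93.89 FPKM against 67.6 to 71.94, and in vehicle set 1 library 2, at 83.63 FPKM against 44.73 to 51.17. Pcp2 was high in vehicle set 2 library 3, at 343.45 FPKM against 257.63 to 278.33.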

How the results depend on the processing

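The median member change of each comparison moved by less than the spread between libraries under all alternatives run; leaving out 1 library gave -0.14 to -0.056 for tunicamycin. Against the mean of both vehicle sets, 5743 genes and 4 members were called for tunicamycin, 4384 and 4 for Ceapin-A7, and 2948 and 2 for AA147, and several signs turned: for tunicamycin, Nyx 0.099, Trpm1 0.035 and Isl1 -0.056; for Ceapin-A7, Nyx 0.24, Pcp2 -0.032, Cabp5 -0.049 and Isl1 -0.070; for AA147, Grm6 0.25, Nyx -0.23, Trpm1 -0.12, Prkca -0.11, Cabp5 0.11 and Isl1 0.086. The vehicle sets themselves differ, as reported. For tunicamycin against vehicle set 2, array weights, the Ddx3y covariate, the compared groups only and libraries of one table family each left 0 members called, with 430, 74 and 389 genes called under the last 3. For tunicamycin against Ceapin-A7, 0 members were called without the filter, with quantile normalization, with the Ddx3y covariate, with the compared groups only (595 genes) and with one table family (703 genes), and 1 with robust empirical Bayes. Array weights called 8 members between the vehicle sets and, for the tunicamycin effect minus the AA147 effect, 1 member and 427 genes, against 60 genes with the Ddx3y covariate and 80 with the compared groups only. Robust empirical Bayes called 1 gene for Ceapin-A7, and the Ddx3y covariate 1 for AA147. The causes were not tested.

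Small changes turned sign elsewhere. For AA147, Pcp2 was -0.0074 with median-ratio scaling, -0.017 with quantile normalization, -0.00063 without lens genes and -0.041 with Ddx3y, and with array weights Grm6 was 0.015 and Isl1 0.010. For tunicamycin against Ceapin-A7, median-ratio scaling gave Grm6 -0.0074 and Isl1 -0.0015, and quantile normalization Isl1 -0.0042. Between vehicle sets quantile normalization gave Vsx1 -0.022. Rescaling without lens genes gave Isl1 -0.010 for Ceapin-A7. Without libraries 4 and 5 of vehicle set 2, Prkca was -0.017 and Isl1 -0.030 for tunicamycin, and Gng13 -0.0020 and Isl1 -0.044 for Ceapin-A7.

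Leaving out each library in turn gave 607 to 1983 genes and 0 to 2 members for tunicamycin, 0 to 19 genes for Ceapin-A7, 0 to 1 for AA147, and 923 to 2871 genes and 0 to 3 members for tunicamycin against Ceapin-A7. It gave 89 to 634 genes and 0 to 1 members for the tunicamycin effect minus the AA147 effect, and 0 to 1 genes for the AA147 effect minus the Ceapin-A7 effect. Isl1 ranged over -0.034 to 0.11 for tunicamycin, -0.048 to 0.076 for Ceapin-A7, -0.042 to 0.051 for AA147 and -0.042 to 0.088 for tunicamycin against Ceapin-A7, where Grm6 ranged over -0.054 to 0.063. For AA147 Grm6 ranged over -0.025 to 0.031, Pcp2 over -0.051 to 0.065 and Trpm1 over -0.030 to 0.19. Between vehicle sets Vsx1 ranged over -0.0077 to 0.092.

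The replicate numbers did not pair the libraries: same-numbered libraries of tunicamycin and vehicle set 2 deviated together with correlations of -0.43 to 0.40, and 0 of 5 correlated best with their own number. With the replicate number as a block, 1115 genes and 1 member were called for tunicamycin against vehicle set 2, 1727 and 2 against Ceapin-A7, and 6119 and 5 between vehicle sets.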

Other observations

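Nyx lies on chromosome X, and the Y-linked gene Ddx3y was at 0 FPKM in some libraries of 3 groups. In Ceapin-A7, libraries 4 and 5, with Ddx3y at 0, had 7.89 and 8.33 FPKM of Nyx, and the other 3 had 7.20 to 7.45. In AA147, libraries 4 and 5, with Ddx3y at 0, had 5.84 and 5.25 FPKM of Nyx, and the other 3 had 4.75 to 5.16. In vehicle set 2, the 4 libraries with Ddx3y at 0 had 8.0 to 9.08 FPKM, and library 5 had 7.91. In each of these 3 groups the libraries without Ddx3y were the higher ones for Nyx, a split chosen after the values were seen and not tested. All 5 vehicle set 1 libraries carried Ddx3y and had 4.66 to 4.98 FPKM of Nyx, and all 5 tunicamycin libraries carried it as well.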
